A study of Homo sapiens with 4 samples.

Results

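The 10 genes described here are 7 matrix metalloproteinases (MMP1, MMP3, MMP7, MMP9, MMP10, MMP14 and MMP15) and 3 tissue inhibitors of metalloproteinases (TIMP1, TIMP2 and TIMP3). They were picked by symbol from the 23 MMP and 4 TIMP genes in the files, with earlier results of these data known. Shares of members called are therefore not those of an independent set. All 10 were found among the 60487 genes measured in each library. RNA came from HCC1937, an established line of human breast carcinoma cells. The vector line has the genotype label BRCA1 -/-, and the wtBRCA1 line, into which wild-type BRCA1 was put, is labelled wild type. Both were grown with DMSO, the solvent, or with OTX-015, which blocks the acetyl-lysine pockets of BET bromodomain proteins. The labels give neither the dose and duration of OTX-015 nor the number of clones behind each line. Each of the 4 groups (vector DMSO, vector OTX-015, wtBRCA1 DMSO, wtBRCA1 OTX-015) has 1 library. No value has a replicate error, and neighbouring levels cannot be told apart from culture-to-culture spread.

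Matrix metalloproteinases are zinc enzymes that cut collagens, laminins and other matrix and cell surface proteins. Most are secreted as inactive precursors whose propeptide is removed by another protease, while the membrane-type enzymes are cut by furin inside the cell and act at the surface. TIMPs bind the active site and block the enzymes. In the breast, the balance between both families is known for its part in duct branching, in involution after lactation and in invasion of the stroma. AP-1 and ETS factors are well known to act on the promoters of the secreted enzymes.

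Levels are FPKM (fragments per kilobase of transcript, scaled to the mapped fragments of the library), which are per length and can be compared between genes. Differences are on the log2(FPKM + 1) scale, which understates changes of low genes. Genes at 1 FPKM or more in at least 1 library were kept (18295). A gene "rose" or "fell" where an additive limma fit over the 4 libraries gave a Benjamini-Hochberg adjusted p below 0.05, and errors after ± are standard errors (SE) of that fit. That p sets a difference against its disagreement across the other factor, moderated by the disagreement of other genes of like level. It therefore measures neither recurrence in the named gene alone nor the spread between repeated cultures. Pairs of libraries had no test, and a difference of at least 1 log2 unit is used there as a mark of size.

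Depth is unknown, since the files give no counts. The summed FPKM ranged from 909314 to 962378 in the DMSO libraries and from 1477103 to 1496107 in the OTX-015 libraries, where the 10 highest genes took 33.8% to 39.2% of it against 15.3% to 17.4%. With vector, BRCA1 stood at 37.2 (DMSO) and 40.8 (OTX-015) FPKM, and with wtBRCA1 at 171 and 2712, the direction the labels give. Epithelial markers were present, with EPCAM between 377 and 443 FPKM and KRT8 between 3185 and 23339. On the same list KRT14 was at 0.438 to 8.53 FPKM and KRT19 at 1.39 to 234. CDH1, KRT5, KRT17 and KRT18 were at 23.2 FPKM or more in every library. The fibroblast genes COL1A2, COL3A1, DCN, PDGFRA and PDGFRB, the leukocyte genes TYROBP, CD163 and AIF1, and the endothelial genes VWF, KDR and EMCN were listed at 0 in every library. Other markers of the same lists were not at 0: CD68 was at 15.5 to 44.5 FPKM, CSF1R at 0 to 1.73, COL1A1 at 1.86 to 9.78, FAP at 2.55 in the vector DMSO library alone, PECAM1 at 0.67 to 4.88 and CDH5 at 0 to 2.15. In bulk RNA, fewer cells with a transcript and less transcript per cell cannot be told apart.

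Promoters of 6 of the 10 genes were in the RefSeq table (GRCh38.p14). Those of MMP7 and MMP10 are shown as secreted enzymes of the chromosome 11 cluster that stayed below 1 FPKM in these cells. MMP14 is shown as a membrane-type enzyme that was above 1 FPKM in the wtBRCA1 line only, and TIMP3 as an inhibitor present in every library. Each is the 250 bases before the RefSeq start, 5′ to 3′ on the gene's strand, with matches on either strand in capitals to the AP-1 motif TGANTCA, its variant TGAGTAA, the TATA box TATAAA and the GC box GGGCGG.
MMP7 (chr11:102530748-102530997, minus strand): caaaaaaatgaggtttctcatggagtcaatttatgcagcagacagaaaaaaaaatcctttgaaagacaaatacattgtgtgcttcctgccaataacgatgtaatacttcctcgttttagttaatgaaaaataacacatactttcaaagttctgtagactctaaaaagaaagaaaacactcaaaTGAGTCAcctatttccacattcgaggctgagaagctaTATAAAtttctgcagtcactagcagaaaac
MMP10 (chr11:102780629-102780878, minus strand): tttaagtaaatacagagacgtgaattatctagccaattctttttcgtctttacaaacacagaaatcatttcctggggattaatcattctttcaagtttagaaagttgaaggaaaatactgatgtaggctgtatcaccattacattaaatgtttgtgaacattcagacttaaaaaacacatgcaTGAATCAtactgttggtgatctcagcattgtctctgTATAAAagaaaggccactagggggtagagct
MMP14 (chr14:22836335-22836584, plus strand): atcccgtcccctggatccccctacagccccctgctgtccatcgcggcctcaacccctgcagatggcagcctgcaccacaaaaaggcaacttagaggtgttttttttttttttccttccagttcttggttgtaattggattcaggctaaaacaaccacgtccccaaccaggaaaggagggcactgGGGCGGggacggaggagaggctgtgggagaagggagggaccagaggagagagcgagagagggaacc
TIMP3 (chr22:32801455-32801704, plus strand): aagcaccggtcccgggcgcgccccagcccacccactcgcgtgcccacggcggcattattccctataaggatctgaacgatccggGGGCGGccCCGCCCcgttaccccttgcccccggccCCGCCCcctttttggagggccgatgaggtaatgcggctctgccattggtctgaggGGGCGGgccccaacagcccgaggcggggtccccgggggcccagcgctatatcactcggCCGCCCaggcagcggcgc
MMP7 held 1 AP-1 motif, 67 bases before its start, and 1 TATA box. MMP10, another gene of the cluster, held the AP-1 motif at the same distance of 67 bases and a TATA box as well. MMP14, MMP15 and TIMP3 held neither and had 1, 5 and 5 GC boxes. TIMP1 held the AP-1 variant 101 bases before its RefSeq start and 2 GC boxes. The ETS motif AGGAAG was found at 2 places in MMP7, at 1 in TIMP1 and at none in the other 4 windows. GENCODE, used here for gene coordinates, starts MMP15 and TIMP1 further upstream, so that 188 and 123 bases of their windows lie inside the gene, and these are not printed. The printed windows of MMP7, MMP14 and TIMP3 reach 6, 28 and 4 bases into the gene by the same annotation. Of the 35116 promoters in the table, 6.57% held TGANTCA, 2.21% TGAGTAA, 28.7% AGGAAG, 10.7% TATAAA and 42.6% GGGCGG in the same window. A match describes the letters and is no evidence of binding. The variant was added to the search after the TIMP1 sequence had been seen. The promoters of MMP1, MMP3, MMP9 and TIMP2 are not shown.

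The inhibitors were far more abundant than the enzymes in every library. TIMP1, TIMP2 and TIMP3 were each above 29 FPKM in all 4 libraries, and no MMP in the set passed 25.2 FPKM. In cells with vector under DMSO the 7 MMPs summed to 6.5 FPKM and the 3 TIMPs to 452. In cells with vector under OTX-015 the sums were 18.6 and 561 FPKM. In cells with wtBRCA1 they were 14.2 and 335 FPKM under DMSO and 41.2 and 1171 under OTX-015. The TIMP to MMP ratio of summed FPKM was 69.5 in cells with vector under DMSO and lay between 23.7 and 30.2 in the other 3 libraries. Over all 23 MMP and 4 TIMP genes in the files the ratio was 21.3 in cells with vector under DMSO, 11.8 under OTX-015, and 7.36 and 16.5 in cells with wtBRCA1.

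**Figure D1:**
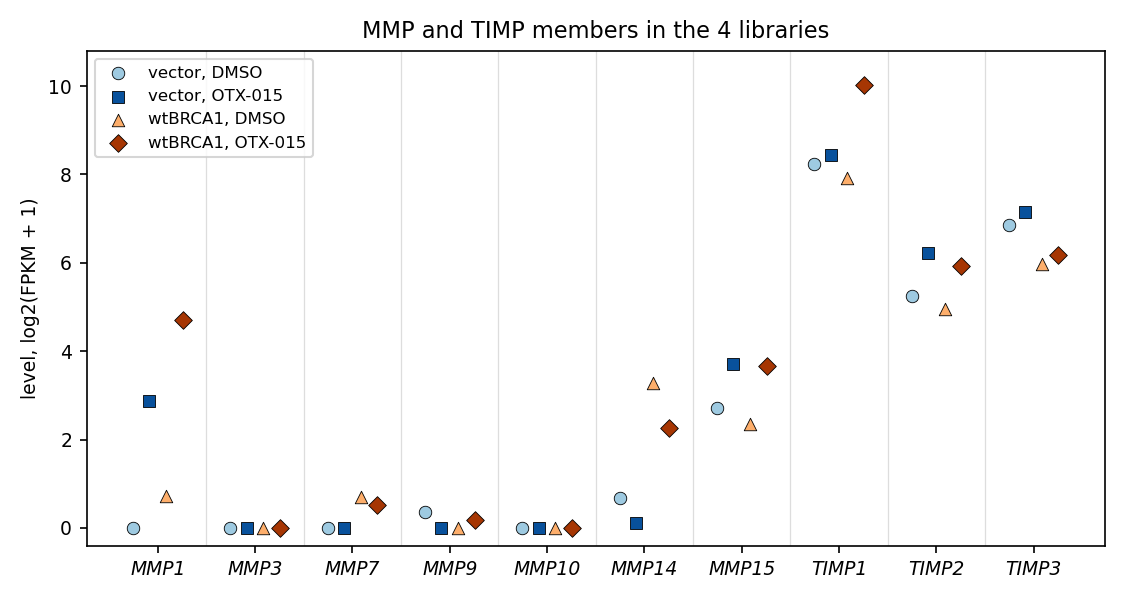
Level of each of the 10 genes in each of the 4 libraries, as log2(FPKM + 1); 1 point is 1 library. The 3 TIMP genes lie above the 7 MMP genes, MMP1 is highest under OTX-015 in both lines, and MMP14 is highest in the wtBRCA1 line.

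**Figure D2:**
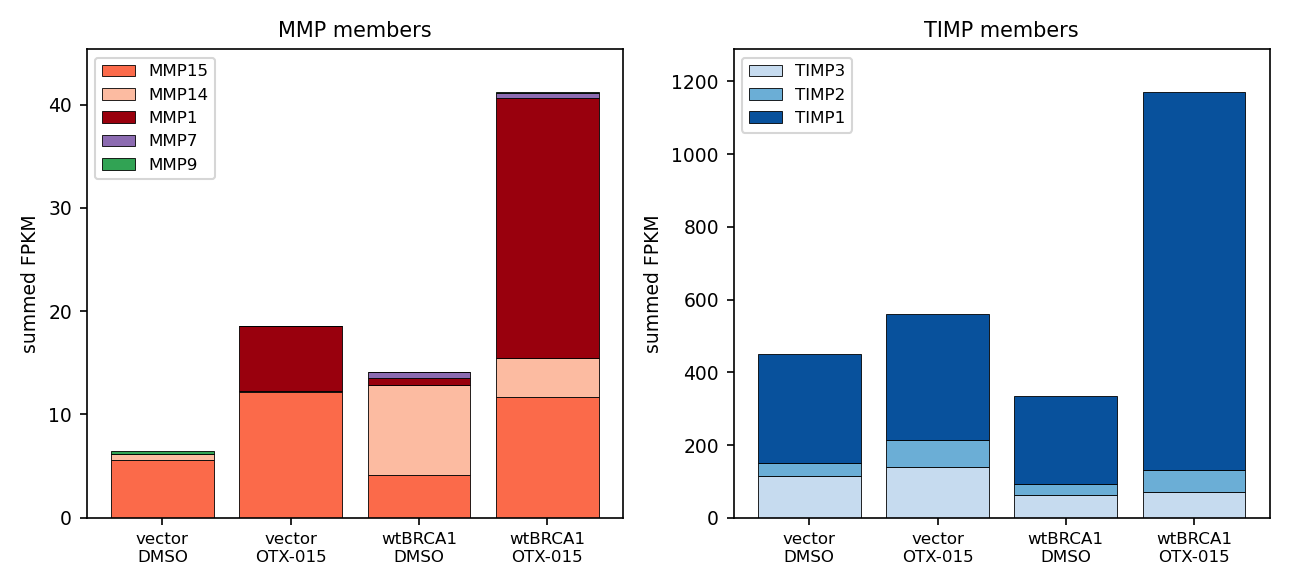
Summed FPKM of the MMP genes (left) and TIMP genes (right) in each library, stacked by gene, with different vertical scales. MMP3 and MMP10 are listed at 0 and are not drawn. MMP1 makes up 61.0% of the MMP sum in cells with wtBRCA1 under OTX-015, and TIMP1 makes up 88.9% of the TIMP sum there.

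The make-up of the MMP sum differed between the libraries. MMP15, a membrane-type enzyme, made up 86.1% of it in cells with vector under DMSO and 65.7% under OTX-015. In cells with wtBRCA1 under DMSO MMP14 was the largest part, at 61.7%, and MMP15 held 29.2%. Under OTX-015 the interstitial collagenase MMP1 took 61.0% in cells with wtBRCA1 and 33.9% in cells with vector. The TIMP sum was led by TIMP1 in each library, from 61.8% in cells with vector under OTX-015 to 88.9% in cells with wtBRCA1 under OTX-015.

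The first comparison asked what OTX-015 changed against DMSO. MMP1 (ENSG00000196611, chr11:102789920-102798160, minus strand, hg38), which cuts fibrillar collagens, was listed at 0 in cells with vector under DMSO and was at 6.29 FPKM under OTX-015. In cells with wtBRCA1 it was at 0.652 and 25.2 FPKM. Both OTX-015 libraries lay above both DMSO libraries. MMP1 rose by 3.43 ± 0.45 log2 (SE, limma adjusted p = 0.0046), with differences of 2.87 in cells with vector and 3.99 in cells with wtBRCA1. No fold is given for cells with vector, where the DMSO library is at 0. MMP1 passed the filter only through its OTX-015 libraries, so it had to differ in order to be tested. The call was lost after quantile normalization (adjusted p = 0.0542), without the mean-variance trend (0.15) and with the line term left out (0.487), and the size of the effect ran from 1.80 with a pseudocount of 5 to 5.53 with a pseudocount of 0.1.

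MMP1 was 1 of 6 kept members with a call for OTX-015 in the limma fit, where 6.32% of all genes kept had one (3.66% rose and 2.67% fell). Of those 1157 calls over all genes, 57.8% were rises, and after rescaling each library to its summed FPKM 7.91% of 1403 calls were. The other 5 did not pass. Of the 6, 5 had a higher value under OTX-015 in both lines and MMP14 a lower one. The share of all genes kept that were higher in both lines was not computed. That count is therefore no result about the members as a set. After that rescaling, which moved the median of all genes by -0.48 log2 in cells with vector and -0.43 in cells with wtBRCA1, TIMP3 was lower in both lines and TIMP1 lower in cells with vector. Relative to that median, TIMP3 differed by 0.06 and 0.02 log2 and TIMP1 by -0.03 in cells with vector. In cells with vector 1 kept member, MMP1, was at least 1 log2 unit apart, where 25.7% of all genes kept were. In cells with wtBRCA1 4 were, against 26.4% of all genes, with MMP1, MMP15 and TIMP1 higher and MMP14 lower. Several values lay at the mark itself. MMP15 fell just short in cells with vector, at 1.0 after rounding, and TIMP2 in both lines, at 0.97. MMP14 counted in cells with wtBRCA1 at -1.02. The counts of 1 and 4 therefore do not show that more members responded in cells with wtBRCA1.

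**Figure D3:**
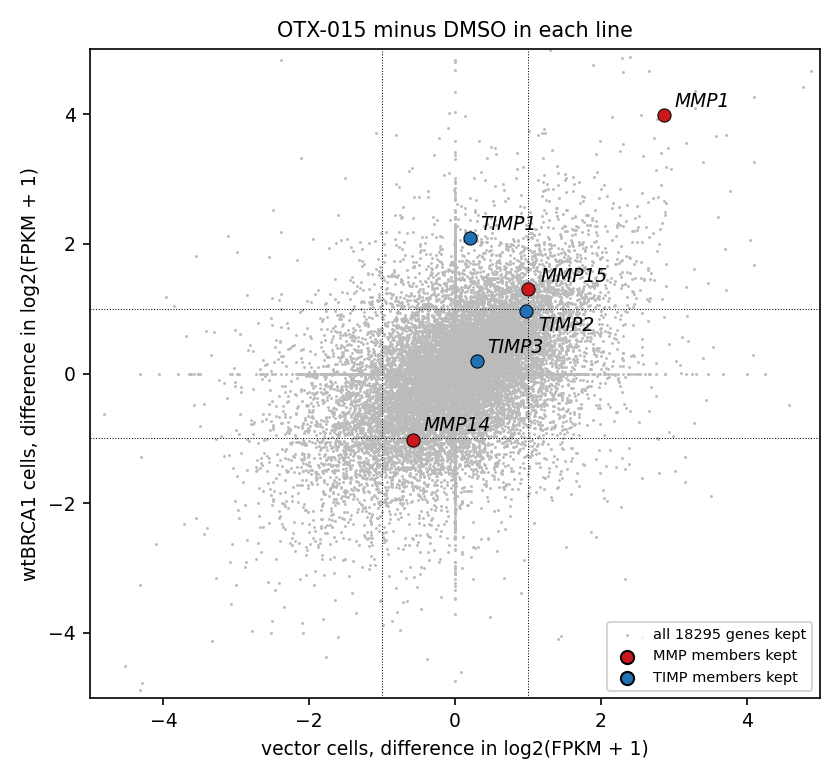
OTX-015 minus DMSO in cells with vector (horizontal) and in cells with wtBRCA1 (vertical), as differences in log2(FPKM + 1), for the 6 kept members and all 18295 genes kept; dotted lines mark 1 log2 unit, and 31 genes lie outside the axes. MMP1 stands at 2.87 and 3.99, TIMP2 at 0.97 on both axes, and TIMP1 at 0.21 and 2.09.

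MMP1 overlaps WTAPP1 (ENSG00000255282), a transcribed pseudogene on the opposite strand whose annotated span, chr11:102746968-102836766, takes in MMP1 and MMP10 and reaches the end of MMP3. WTAPP1 was listed at 0, 5.6, 0.68 and 19.8 FPKM in vector DMSO, vector OTX-015, wtBRCA1 DMSO and wtBRCA1 OTX-015, the same order of libraries as MMP1. Where MMP1 was above 0, WTAPP1 stood at 0.786 to 1.04 times the MMP1 level. The pair shares 150 exon bases, 7.61% of MMP1's 1970, in a stretch of 99 bases beginning 38 bases after the MMP1 start and one of 51 bases further along. The libraries were made with a directional kit, and the use of strand in counting is not stated in the sources used here, so reads of this pair may have been divided between them. With 4 libraries, the centred log2 profile of WTAPP1 was 0.28 from that of MMP1 (Euclidean distance). Like MMP1, it passed the filter only through the OTX-015 libraries. Among 12456 other protein-coding genes the nearest to MMP1, GCH1 and the linker histone gene HIST1H1C, were at 0.68 and 0.70. WTAPP1 was measured apart from that ranking, and other noncoding genes were not ranked, so it is not shown to be the closest profile.

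**Figure D4:**
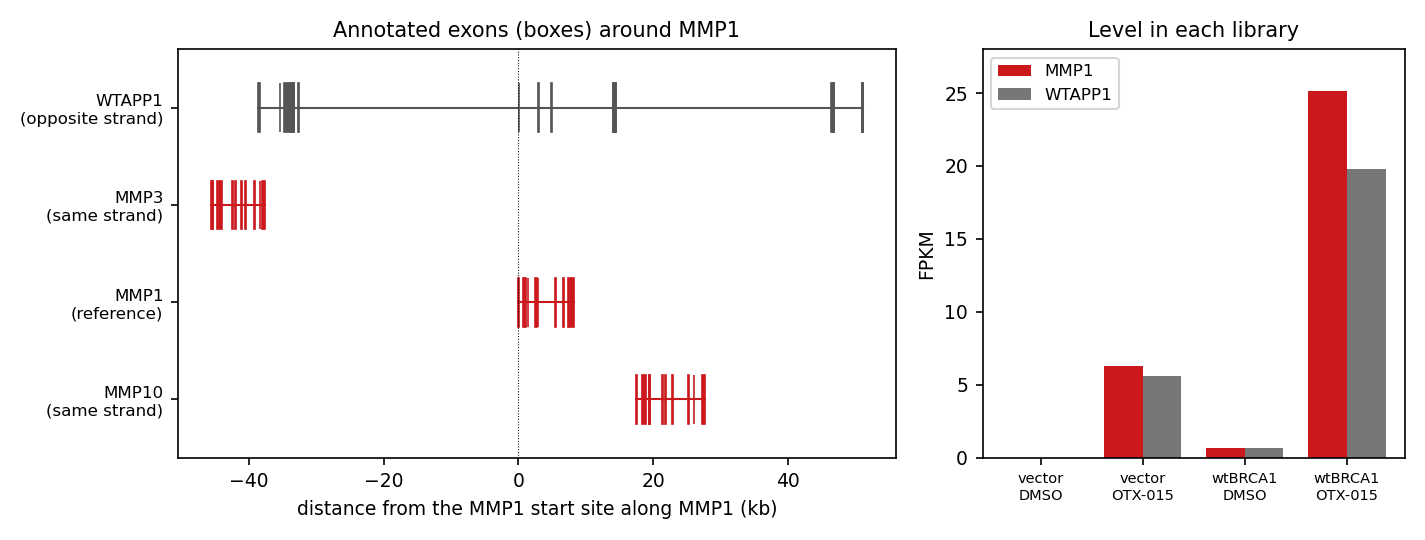
Left, annotated exons (boxes) of MMP10, MMP1, MMP3 and the opposite-strand gene WTAPP1, by distance in kb from the MMP1 start; right, FPKM of MMP1 (red) and WTAPP1 (grey) in each library. Bars of both genes have like heights in each library and are highest at 25.2 and 19.8 FPKM in cells with wtBRCA1 under OTX-015.

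MMP1 is one of 9 MMP genes annotated side by side on chromosome 11 between 102520508 and 102955734, all on the minus strand. The other 8 stayed below 1 FPKM in the 4 libraries. The stromelysins MMP3 (chr11:102835801-102843803) and MMP10 (chr11:102770503-102780628), which cut proteoglycans and fibronectin and can activate other MMPs, were listed at 0 in every library. Matrilysin MMP7 (chr11:102520508-102530753), a small epithelial enzyme without the hemopexin domain, was listed at 0 in both vector libraries and at 0.641 and 0.437 FPKM in cells with wtBRCA1 under DMSO and OTX-015. MMP20, the enamel enzyme, was at 0.528 FPKM in cells with wtBRCA1 under DMSO and at 0 elsewhere. MMP8, MMP12, MMP13 and MMP27 were listed at 0 throughout. The rise under OTX-015 was thus seen at 1 of the 9 cluster genes, and with the others near 0 a fall could not have been detected.

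Gelatinase MMP9 (ENSG00000100985, chr20:46008908-46016561), which cuts denatured collagen and type IV collagen, was at 0.287 FPKM in cells with vector under DMSO, 0.13 in cells with wtBRCA1 under OTX-015 and 0 in the other 2 libraries. An antisense gene, RP11-465L10.10, shares 430 of its exon bases and was listed at 2.50, 2.04, 0.732 and 0.214 FPKM in vector DMSO, vector OTX-015, wtBRCA1 DMSO and wtBRCA1 OTX-015. MMP3, MMP7, MMP9 and MMP10 were the 4 members under the filter and were not tested.

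MMP15 (ENSG00000102996, chr16:58025566-58046901), a membrane-type enzyme, was at 5.6 (DMSO) and 12.2 (OTX-015) FPKM in cells with vector, and at 4.13 and 11.7 in cells with wtBRCA1. Both OTX-015 libraries were above both DMSO libraries, with ratios of 2.18 and 2.84. The difference of 1.15 ± 0.36 log2 (SE) did not pass (limma adjusted p = 0.0928). After rescaling to the summed FPKM it was 0.56 log2. Relative to the median of all genes after that rescaling, MMP15 differed by 0.83 log2 in cells with vector and 1.19 in cells with wtBRCA1. The MMP15 profile over the 4 libraries was nearest to those of G3BP2 and APLP2, at distances of 0.06 and 0.07. No annotated gene overlaps it.

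TIMP2 (ENSG00000035862, chr17:78852977-78925387), which blocks several MMPs and also helps MMP14 to activate MMP2, was at 36.9 and 73.4 FPKM in cells with vector and at 29.9 and 59.6 in cells with wtBRCA1. The OTX-015 to DMSO ratio was 1.99 in each line. The difference of 0.97 ± 0.30 log2 did not pass (limma adjusted p = 0.0919). After rescaling to the summed FPKM it was 0.32 log2. Relative to the median of all genes after that rescaling, TIMP2 differed by 0.75 log2 in cells with vector and 0.8 in cells with wtBRCA1. An antisense entry of 367 bases, RP11-323N12.5 (chr17:78855478-78855844), lies wholly within TIMP2 exons and was listed at 413, 1027, 347 and 789 FPKM in vector DMSO, vector OTX-015, wtBRCA1 DMSO and wtBRCA1 OTX-015. Those levels are 11.2 to 14 times the TIMP2 level in FPKM, which is per length. TIMP2 has 5633 exon bases, so this is not a ratio of fragments. The entry was 1.31 and 1.18 log2 higher under OTX-015 in the vector and wtBRCA1 line. Reads of the shared bases may have been divided, so the TIMP2 level may be understated. CEP295NL, which shares 198 exon bases with TIMP2, reached 2.18 FPKM. The genes nearest to TIMP2 in profile were GRB7 and EFNB2, at distances of 0.05 and 0.07.

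TIMP1 (ENSG00000102265, chrX:47582313-47586789, inside an intron of SYN1) inhibits most secreted MMPs. It was at 300.0 (DMSO) and 347 (OTX-015) FPKM in cells with vector, and at 243 and 1041 in cells with wtBRCA1. The wtBRCA1 OTX-015 library was 3.0 times the next highest, and the other 3 lay within 243 to 347 FPKM. OTX-015 differences were 0.21 log2 in cells with vector and 2.09 in cells with wtBRCA1, and the common difference of 1.15 ± 0.37 log2 did not pass (limma adjusted p = 0.102). The response of cells with wtBRCA1 exceeded that of cells with vector by 1.88 log2, the widest gap of the 6 kept members, and with 1 library a group it could not be tested. BRCA1 was highest in the same library, at 2712 FPKM, and its part in the TIMP1 level was not tested. TBC1D16 and PPP2R5B had the nearest profiles, at distances of 0.07 and 0.16.

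TIMP3 (ENSG00000100234, chr22:32801701-32863043, inside SYN3 with no shared exon) stays bound to the matrix and also inhibits ADAM17. It was at 115 and 141 FPKM in cells with vector and at 61.8 and 70.8 in cells with wtBRCA1 under DMSO and OTX-015. The OTX-015 difference was 0.24 ± 0.28 log2 (limma adjusted p = 0.652).

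The second comparison set cells with wtBRCA1 against cells with vector. It cannot tell restored BRCA1 apart from any other difference between both lines. MMP14 (ENSG00000157227, chr14:22836557-22849027), the membrane-type enzyme that cuts collagen at the cell surface and activates MMP2, was at 0.614 FPKM in cells with vector and 8.73 in cells with wtBRCA1 under DMSO. Under OTX-015 it was at 0.0779 and 3.80 FPKM. Both wtBRCA1 libraries lay above both vector libraries. MMP14 rose by 2.37 ± 0.46 log2 (SE, limma adjusted p = 0.0135), by 2.59 under DMSO and 2.15 under OTX-015. Both vector libraries were below 1 FPKM, so MMP14 passed the filter only through the wtBRCA1 line and had to differ in order to be tested. The call was lost at an FPKM filter of 5 (adjusted p = 0.0925), after quantile normalization (0.053), after rescaling to the summed FPKM (0.0506), without the trend (0.0615) and with treatment left out (0.211). Its size ran from 1.04 with a pseudocount of 5 to 4.04 with a pseudocount of 0.1.

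Under OTX-015 MMP14 was lower than under DMSO in both lines, by -0.58 and -1.02 log2, and did not pass for the treatment (-0.80 ± 0.46, SE, limma adjusted p = 0.343). The peptidase gene ACE and PGAM2 had the nearest profiles, at distances of 0.09 and 0.26. ACE was at 0.636, 0, 8.35 and 3.61 FPKM in vector DMSO, vector OTX-015, wtBRCA1 DMSO and wtBRCA1 OTX-015. CD14, from the leukocyte marker list, was also higher in the wtBRCA1 line, at 9.51 and 5.62 FPKM against 0.109 and 0, and it too passed the filter only through that line. Of the 8 markers on that list, TYROBP, CD163 and AIF1 were at 0 throughout and PTPRC reached 0.225 FPKM, and the summed level was 17 and 26.5 FPKM with vector and 33.4 and 51.5 with wtBRCA1, most of it CD68. Of 8 fibroblast markers, 5 were at 0 throughout, and their summed level was 4.66 and 4.01 FPKM with vector and 9.78 and 8.39 with wtBRCA1, where all of it was COL1A1. The part of either list in the MMP14 difference was not tested. Of the epithelial markers, KRT5 (4.79 log2) and KRT17 (1.60) rose in the wtBRCA1 line, where KRT17 differed by 2.74 under DMSO and 0.46 under OTX-015. KRT8 (-1.87), KRT18 (-2.12) and KRT19 (-5.63) fell. The part of these markers in the MMP14 difference was not tested either.

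MMP14 was 1 of 6 kept members with a call for the line, where 8.29% of all genes kept had one (4.88% rose and 3.41% fell). The other 5 did not pass. Under DMSO 1 kept member, MMP14, was at least 1 log2 unit apart, where 26.5% of all genes kept were. Under OTX-015 3 were (MMP1, MMP14 and TIMP1, all higher in cells with wtBRCA1), against 27.7% of all genes. MMP1 differed by 0.72 log2 under DMSO and 1.84 under OTX-015 (line effect 1.28 ± 0.45, limma adjusted p = 0.113). Under OTX-015 it was 4.0 times as high in cells with wtBRCA1.

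**Figure D5:**
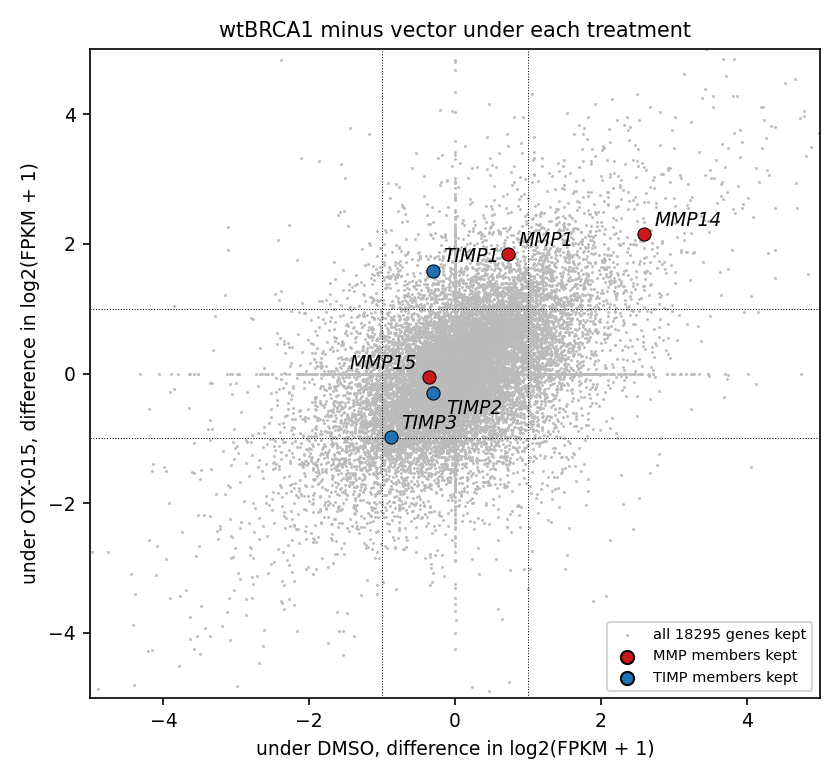
The wtBRCA1 line minus the vector line under DMSO (horizontal) and under OTX-015 (vertical), as differences in log2(FPKM + 1), for the 6 kept members and all 18295 genes kept; dotted lines mark 1 log2 unit, and 66 genes lie outside the axes. MMP14 stands at 2.59 and 2.15, TIMP3 at -0.88 and -0.98, and TIMP1 at -0.30 and 1.58.

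TIMP3 was lower in cells with wtBRCA1 under both treatments, at 0.539 and 0.503 times the vector level. The line effect of -0.93 ± 0.28 log2 did not pass (limma adjusted p = 0.0714). Its profile was close to that of UBALD1, at a distance of 0.05. TIMP2 was at 0.809 and 0.811 times the vector level (limma adjusted p = 0.609), and MMP15 at 0.737 and 0.961 times (0.766). TIMP1 was lower in cells with wtBRCA1 under DMSO, by -0.30 log2, and higher under OTX-015, by 1.58. Its line effect of 0.64 ± 0.37 log2 did not pass (limma adjusted p = 0.341).

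Among the 17 other MMP and TIMP genes, 8 were kept, 7 were listed at 0 in every library, none had a call for OTX-015 and 1 had one for the line. That was TIMP4, which fell in cells with wtBRCA1, from 6.87 to 0.67 FPKM with DMSO, and with OTX-015 from 6.96 to 2.42 (-1.73 ± 0.44 log2, limma adjusted p = 0.0397). The TIMP4 call held in 2 of 10 alternative settings, with no filter and with robust estimation. For the 8 kept genes the median OTX-015 difference was 0.34 log2 in cells with vector and 0.46 in cells with wtBRCA1, beside 0.0 for all genes in each. MMP24, a membrane-type enzyme, was at 5.85 and 13.7 FPKM in cells with vector and 7.39 and 14.3 in cells with wtBRCA1 under DMSO and OTX-015 (0.99 ± 0.35 log2, limma adjusted p = 0.132). MMP17, another membrane-type enzyme, was at 1.21 and 7.88 FPKM in cells with vector and 2.09 and 5.0 in cells with wtBRCA1 (1.48 ± 0.44, 0.077). MMP28, or epilysin, and MMP25 were highest in cells with wtBRCA1 under DMSO, at 10.2 and 7.20 FPKM, and lay between 1.21 and 3.18 elsewhere. MMP2, the gelatinase that MMP14 activates, did not pass 1.12 FPKM in any library. MMP2, MMP17 and MMP25 were singled out after their values were seen, as was CD14 above.

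Beside this and the following lists, 6.32% of all genes kept had a call for OTX-015 and 8.29% for the line. Of 18 genes of MMP activation, inhibition and uptake, all kept, 3 rose and 1 fell under OTX-015. The first 3 were BSG, or EMMPRIN, a surface glycoprotein known to induce MMPs (1.01 ± 0.19 log2, SE, limma adjusted p = 0.0199), the tight junction gene CLDN1 (2.12) and the lysosomal protease CTSB (1.24). The urokinase gene PLAU, which generates plasmin, fell, from 15.9 to 5.68 FPKM in cells with vector and from 20.8 to 5.25 in cells with wtBRCA1 (-1.57 ± 0.36, limma adjusted p = 0.0342). For the line, BSG (0.93), SPINT2 (0.71) and LCN2, which binds MMP9 (2.17 ± 0.23, limma adjusted p = 0.000823), rose. The proprotein convertase PCSK5 fell from 38 to 3.68 FPKM with DMSO, and with OTX-015 from 44.4 to 6.87 (-2.79 ± 0.35, limma adjusted p = 0.00191). The SPINT2 call held in 1 of 10 alternative settings and the PLAU call in 3. The list medians were 0.15 and 0.54 log2 for OTX-015 with vector and with wtBRCA1 and 0.01 and 0.06 for the line under DMSO and OTX-015. Those of all genes kept were 0.0 and 0.0 for OTX-015 and 0.04 and 0.0 for the line.

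Of 13 ADAM and ADAMTS proteases, 8 were kept and 1, ADAM15, rose for OTX-015 (1.04 ± 0.26 log2, limma adjusted p = 0.0437) and for the line (1.01 ± 0.26, 0.0408). Each ADAM15 call held in 2 of 10 alternative settings. The sheddases ADAM10 and ADAM9 were at 55.4 to 112 and 58.1 to 86.6 FPKM and did not pass. Of 13 AP-1 and ETS factors, 12 were kept. JUND rose under OTX-015 from 15.9 to 88.2 FPKM in cells with vector and from 25 to 75.0 in cells with wtBRCA1 (1.97 ± 0.34 log2, limma adjusted p = 0.0135), and the ETS gene ETV4 fell for OTX-015 (-1.52 ± 0.36, 0.0378) and for the line (-1.75 ± 0.36, 0.0177). The ETV4 calls held in 3 and 5 of 10 alternative settings. The factor ETV5 was at 40.1, 59.6, 51.7 and 258 FPKM in vector DMSO, vector OTX-015, wtBRCA1 DMSO and wtBRCA1 OTX-015 and did not pass. The epithelial ETS factor ELF3 was at 80.9, 230, 181 and 116 FPKM in the same order and did not pass.

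Of 17 matrix and shed substrates, 15 were kept. Under OTX-015 1 rose, CDH1 (1.31 log2), an adhesion protein that MMPs can shed. For the line 4 rose and 1 fell. Tenascin TNC rose from 4.90 to 43.7 FPKM with DMSO, and with OTX-015 from 3.42 to 37.8 (a log2 change of 3.03 ± 0.34 with a limma adjusted p of 0.00116). The hemidesmosome collagen COL17A1 (2.23) and the anchoring fibril collagen COL7A1 (2.16) were also among those that rose, and the EGFR ligand AREG fell (-1.68). The line medians of this list were 0.97 log2 under DMSO and 0.60 under OTX-015, beside 0.04 and 0.0 for all genes kept. Of the 8 list calls for OTX-015 and the 12 for the line, 0 and 6 were kept after quantile normalization, 3 and 6 after rescaling to the summed FPKM, 0 and 2 without the trend and 0 and 0 with the other factor left out. With pseudocounts of 0.1 and 5, a filter of 5 or median-of-ratios factors, 5 of the 8 and 8 or 9 of the 12 were kept.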

How the data were processed

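Poly(A)-selected RNA of 4 HCC1937 groups was sequenced, 1 library per group. The authors deposited FPKM values per gene, for which the submitters' processing notes name TopHat2, Cufflinks and hg38; versions, annotation release and scaling between libraries are not given in the sources used here. The files hold no counts, so depth is unknown. Values were joined by identifier (94.2% in GENCODE 29), 7508 genes of short structural RNA were not analysed, and 68 symbols held by several genes were summed. Genes at 1 FPKM or more in at least 1 library were analysed as log2(FPKM + 1) with limma 3.58.1 (R 4.3.3), with terms for line and treatment and a mean-variance trend, which leaves 1 residual degree of freedom per gene. Adjustment was over all 18295 genes kept, and the fit was tested on simulated data. There it missed most changes of 1 log2 unit. Changes were placed only in genes above a mean level that MMP14 did not reach. False calls were more frequent with spread drawn from the fitted variance of each gene than from the variance pooled over genes.

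Named genes were all 10 members; per list, called genes (up to 5 each way) and the 3 of highest mean; the 2 protein-coding genes nearest each kept member in centred profile; genes overlapping members; and the chromosome 11 cluster. Some genes the rule names are not reported here. Members and lists were chosen with earlier results of these data known. Coordinates are GENCODE 29, whose spans lay within the files' hg38 loci for all 10 members. Alternatives were pseudocounts, filters, scalings, fit options and each library left out. Python 3.11.15, pandas 2.3.3, numpy 2.4.6 and matplotlib 3.10.9 were used.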

Additional observations from a re-analysis of the deposited data

Results flagged for a closer look

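The TIMP1 difference between the lines had opposite signs under the 2 treatments. Under OTX-015 TIMP1 was higher than under DMSO by 0.21 log2 in cells with vector and 2.09 in cells with wtBRCA1. In cells with vector that difference was 0.0 after quantile normalization and -0.51 after rescaling to the summed FPKM. The wtBRCA1 line differed from the vector line by -0.30 log2 under DMSO and by 1.58 log2 under OTX-015. With 1 library a group this difference was not tested.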

How the results depend on the processing

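The count of members called for OTX-015 was 1 and stayed at 1 with pseudocounts of 0.1 and 5, an FPKM filter of 5, median-of-ratios and summed-FPKM rescaling and robust estimation. It was 0 after quantile normalization, without the trend and with the line left out, and 3 with no filter, where limma warned that most residual variances were 0. For the line the count of 1 became 0 at an FPKM filter of 5, after quantile normalization, after rescaling to the summed FPKM, without the trend and with treatment left out, and 2 with no filter. Members 1 log2 unit apart went from 1 to 3 with a pseudocount of 0.1 in vector OTX-015 against DMSO, from 4 to 2 with a pseudocount of 5 in wtBRCA1 OTX-015 against DMSO, and from 1 to 2 with a pseudocount of 0.1 or after quantile normalization in wtBRCA1 against vector under DMSO. These pair counts moved where single values crossed 1 log2 unit. With a pseudocount of 0.1, MMP15 and MMP14 in cells with vector went from 1.0 to 1.11 and -0.58 to -2.0. MMP1 between the lines under DMSO went from 0.72 to 2.91. With a pseudocount of 5, MMP15 and MMP14 in cells with wtBRCA1 went from 1.31 to 0.87 and -1.02 to -0.64. After quantile normalization TIMP3 between the lines under DMSO went from -0.88 to -1.0. For the limma calls the cause was not tested.

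Over all genes the calls for OTX-015 went from 1157 to 756 and 453 with pseudocounts of 0.1 and 5, 522 at a filter of 5, 3703 with no filter (43.8% of them higher, against 57.8%), 625 with median-of-ratios factors, 60 after quantile normalization, 1403 after summed-FPKM rescaling (7.91% higher), 4 without the trend (75.0% higher) and 1 with the line left out. Calls for the line went from 1516 to 861 with a pseudocount of 5, 828 at a filter of 5, 3894 with no filter, 656 after quantile normalization, 673 after summed-FPKM rescaling, 173 without the trend and 57 with treatment left out. That rescaling, chosen after seeing the data, turned the TIMP3 effect of OTX-015 to -0.42 log2. Without either OTX-015 library the TIMP1 line effect was -0.30 log2, and without either DMSO library 1.58. Leaving out 1 library leaves 1 pair and no residual degree of freedom, so no test. No paired analysis was possible because each group has 1 library, so there is no replicate number to block on beyond the line and treatment terms already fitted.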
